A study of Mus musculus with 31 samples.

Results

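Dcx, Sox4, Sox11, Nnat and Hmgb2, 5 genes known from young neurons and late retinal progenitors, were followed across mouse retinas of 4 genotypes and 2 ages. The genes were taken by symbol from a list and make up 5 of the 18193 genes measured. The samples were both retinas of single mice, 31 in all, which were 14 (P14) or 28 (P28) days old, and hybridised to Affymetrix arrays. The genotypes were +/+, Rorb-/- (without the nuclear receptor gene Rorb), +/+;CrxpNrl and Rorb-/-;CrxpNrl, where CrxpNrl is a transgene in which the Crx promoter drives Nrl, a transcription factor of rods. That promoter is active in photoreceptors and their precursors. The last 2 genotypes are called +/+ and Rorb-/- with the transgene below. Each group held 4 mice, except P28 +/+ with the transgene, which held 3. The deleted part of Rorb, the strain, the sex of the mice and the number of transgenic lines are not given in the sources used here. Rorb read between 8.15 and 9.98 on the log2 scale in the 16 arrays labelled Rorb-/- and between 10.23 and 11.18 in the other 15, so the arrays separated by label. Array medians lay between 5.84 and 5.91. In the mean of 8 rod markers the +/+ retinas lay between 12.68 and 12.95 at both ages. P14 Rorb-/- retinas read 9.22 and 9.28 in replicates 1 and 2, and 10.35 and 10.75 in replicates 3 and 4. P28 Rorb-/- retinas lay between 10.14 and 10.53. Rorb-/- retinas with the transgene lay between 11.38 and 12.06 at P14. At P28 they stood apart from each other, with rod markers at 12.13 and 11.86 in replicates 1 and 2 and at 9.69 and 10.45 in replicates 3 and 4, and ganglion cell markers at 8.97 and 9.24 against 9.86 or more. Results on these P28 mice were therefore recomputed without replicates 3 and 4, a choice made after seeing the data, and are given where a call ended.

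A newborn neuron leaves the cell cycle, migrates and extends processes before it forms synapses, and a set of genes is switched on for that period and turned down afterwards. Dcx encodes doublecortin, a microtubule-binding protein of migrating neurons. Sox4 and Sox11 encode transcription factors of the SoxC group, which act in neurons shortly after their birth and, in the retina, in the making of ganglion cells. Nnat encodes neuronatin, a small membrane protein of the endoplasmic reticulum made from the paternal allele only, and Hmgb2 encodes a DNA-bending chromatin protein that is abundant in dividing cells. In the mouse retina the last neurons are born in the first weeks after birth, so that P14 and P28 both lie after the main wave of neuron birth.

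The stretch around each gene's start site is shown because 3 of the genes, Dcx, Sox4 and Nnat, moved together while Hmgb2 did not. All 5 genes matched the RefSeq promoter table (GRCm38.p6), which holds 250 bases before and 50 bases after the start. The Dcx stretch lies at chrX:143933170-143933469 on the minus strand, that of Sox4 at chr13:28953650-28953949 (minus), that of Sox11 at chr12:27342669-27342968 (minus), that of Nnat at chr2:157559828-157560127 (plus) and that of Hmgb2 at chr8:57511593-57511892 (plus). They are written 5′ to 3′ on the gene's strand, and capitals mark matches, on either strand, to CCAAT (the box bound by NF-Y), ACAAAG (a core bound by Sox proteins), AGGTCA (a site of nuclear receptors such as RORβ) or TAATCC (a core bound by Crx and Otx2).
Dcx: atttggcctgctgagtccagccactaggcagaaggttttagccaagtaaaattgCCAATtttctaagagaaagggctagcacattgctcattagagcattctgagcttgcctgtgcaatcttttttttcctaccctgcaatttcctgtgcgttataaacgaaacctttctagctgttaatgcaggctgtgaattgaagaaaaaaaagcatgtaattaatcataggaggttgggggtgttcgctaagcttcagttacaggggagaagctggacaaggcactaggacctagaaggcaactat
Sox4: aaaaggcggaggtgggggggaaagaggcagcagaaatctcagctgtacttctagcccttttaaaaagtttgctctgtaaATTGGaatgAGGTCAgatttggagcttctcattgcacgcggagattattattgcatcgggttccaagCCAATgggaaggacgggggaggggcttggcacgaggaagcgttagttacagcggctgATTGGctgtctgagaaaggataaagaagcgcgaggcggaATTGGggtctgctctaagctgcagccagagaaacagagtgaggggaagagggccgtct
Sox11: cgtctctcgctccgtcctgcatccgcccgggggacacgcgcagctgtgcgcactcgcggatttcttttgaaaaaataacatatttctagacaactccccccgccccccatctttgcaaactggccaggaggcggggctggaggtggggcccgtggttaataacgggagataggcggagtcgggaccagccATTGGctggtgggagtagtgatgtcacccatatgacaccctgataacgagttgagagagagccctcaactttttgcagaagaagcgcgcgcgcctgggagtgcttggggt
Nnat: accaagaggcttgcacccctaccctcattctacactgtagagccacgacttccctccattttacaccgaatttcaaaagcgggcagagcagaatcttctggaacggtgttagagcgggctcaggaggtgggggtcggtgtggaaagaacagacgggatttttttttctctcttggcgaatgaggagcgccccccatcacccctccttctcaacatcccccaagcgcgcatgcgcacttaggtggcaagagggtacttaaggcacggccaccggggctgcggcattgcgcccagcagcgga
Hmgb2: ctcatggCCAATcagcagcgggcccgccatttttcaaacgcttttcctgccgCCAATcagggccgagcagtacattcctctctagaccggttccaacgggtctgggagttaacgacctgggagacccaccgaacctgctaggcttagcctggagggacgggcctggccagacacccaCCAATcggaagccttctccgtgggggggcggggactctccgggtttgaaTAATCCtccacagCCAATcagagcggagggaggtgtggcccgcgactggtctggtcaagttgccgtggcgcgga

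CCAAT was found 4 times in the Sox4 stretch, 4 times in that of Hmgb2, 1 time each in Dcx and Sox11, and not in Nnat. Of all 32851 promoters in the table, 37.4% held it. AGGTCA stood 1 time, in Sox4 (16.3% of all promoters held it), and TAATCC 1 time, in Hmgb2 (7.1%). ACAAAG (18.7% of promoters) had no match in the 5 stretches shown and 1 in a further Dcx stretch, chrX:143933075-143933374 (minus). No base belonged to 2 matches. The Dcx stretch had 43.0% G and C and 3 CpG pairs, against 58.7% and 21 in Sox11, 57.3% and 17 in Nnat, 62.0% and 20 in Hmgb2, and 52.0% and 12 in Sox4. The medians over all promoters were 52.7% and 7 CpG pairs. The genes that moved together thus did not share one of these matches, and a match is a description of the letters only.

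From P14 to P28, Nnat and Sox4 fell in all 4 genotypes, and Dcx fell in 3 of them. Nnat, the member with the largest fall in every genotype, dropped 3.33-fold to 4.66-fold. Sox4 dropped 1.88-fold to 3.43-fold. Hmgb2 rose in +/+ retinas and fell in both Rorb-/- genotypes, so the label of a declining gene did not hold for it in +/+. Sox11, measured by its brightest probe set, passed the test in Rorb-/- with the transgene only, and its other probe sets are given with it below. Differences are P28 minus P14 on the log2 scale ± SE from a limma fit over all 31 arrays, and genes were called at a Benjamini-Hochberg adjusted p under 0.05 over all 18193 genes. Whole retinas were measured, so fewer cells of a type and less RNA per cell cannot be told apart.

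In +/+ retinas 3 of the 5 genes fell, 1 rose and 1 did not pass, while 7.94% of all genes fell and 5.77% rose. In Rorb-/- retinas 4 fell and 1 did not pass, against 8.8% of all genes that fell and 6.15% that rose. With the transgene, 2 of the 5 fell and 0 rose by limma in +/+ (7.2% of all genes fell and 2.65% rose; 4 of the 5 had an unadjusted p under 0.05) and 5 of the 5 fell in Rorb-/- (15.3% of all genes fell and 13.6% rose). The median of the 5 genes was -1.03 in +/+, -1.78 in Rorb-/-, -0.42 in +/+ with the transgene and -1.65 in Rorb-/- with it. The medians over all genes lay between -0.02 and 0.00. The age changes of different genotypes share no mice. Without P28 replicates 3 and 4 all 5 genes still fell in Rorb-/- with the transgene, at -1.87 for Dcx, -1.64 for Sox4, -1.72 for Sox11 (adjusted p = 0.0375), -2.25 for Nnat and -0.80 for Hmgb2 (adjusted p = 0.0136).

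**Figure D1:**
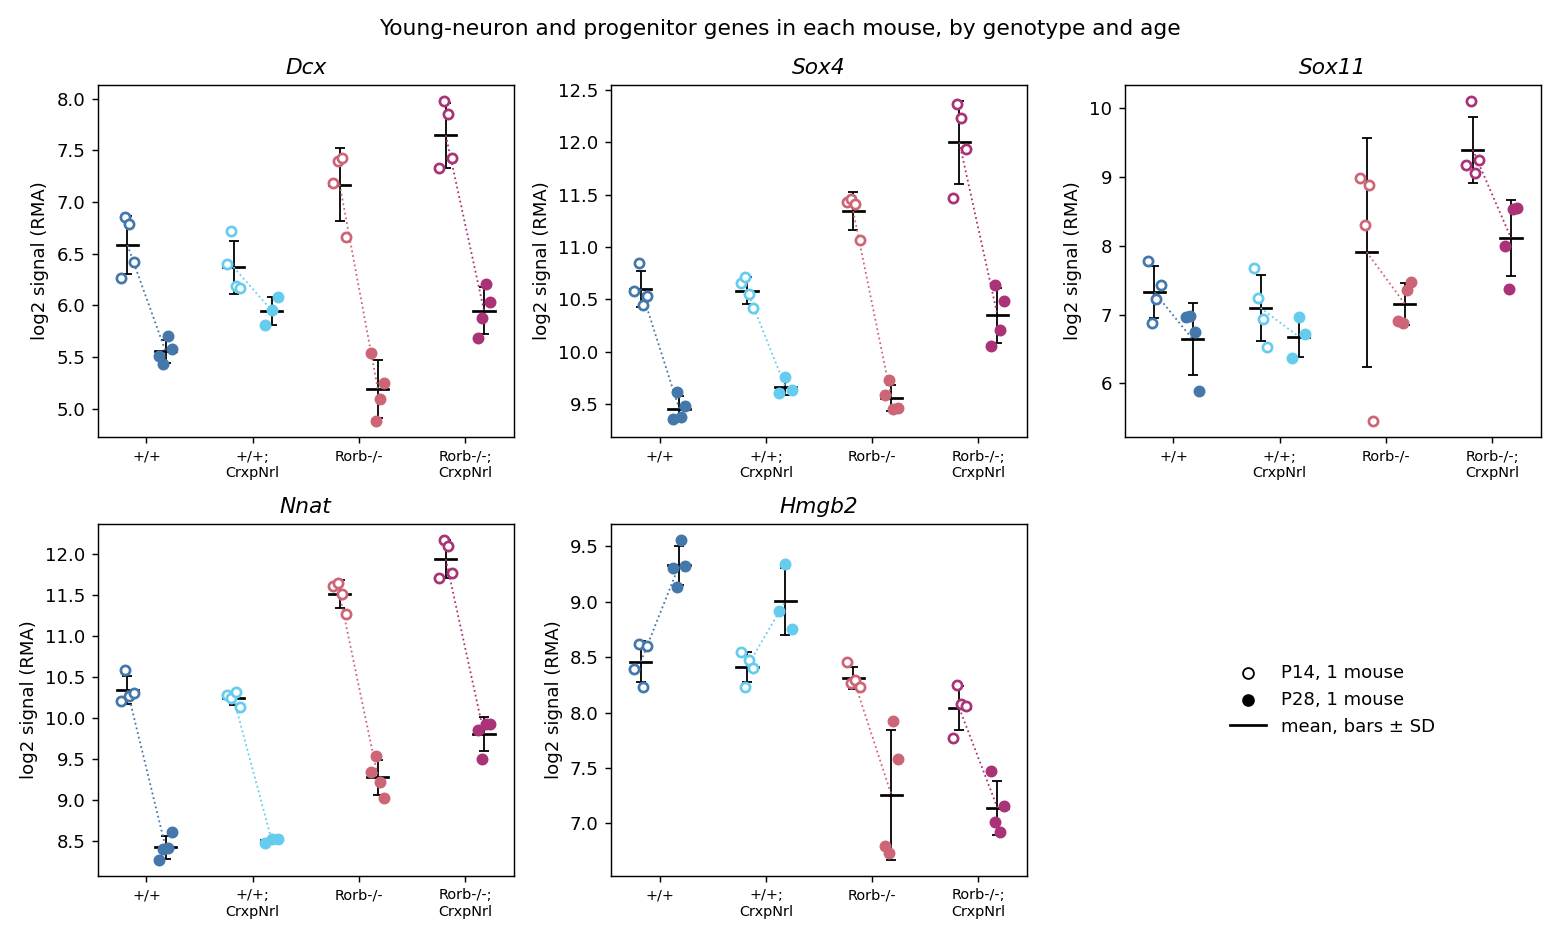
RMA log2 signal (y axis) of the 5 genes in each mouse, by genotype (x axis) and age (open points P14, filled points P28), with lines at the group means, bars of 1 SD and a dotted line joining the means of a genotype. The P28 mice lie below the P14 mice of their genotype for Nnat, Sox4 and Dcx, and Hmgb2 lies higher at P28 in +/+ (9.13 to 9.56) than at P14 (8.23 to 8.62) but lower in Rorb-/- (6.73 to 7.92 against 8.23 to 8.46).

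**Figure D2:**
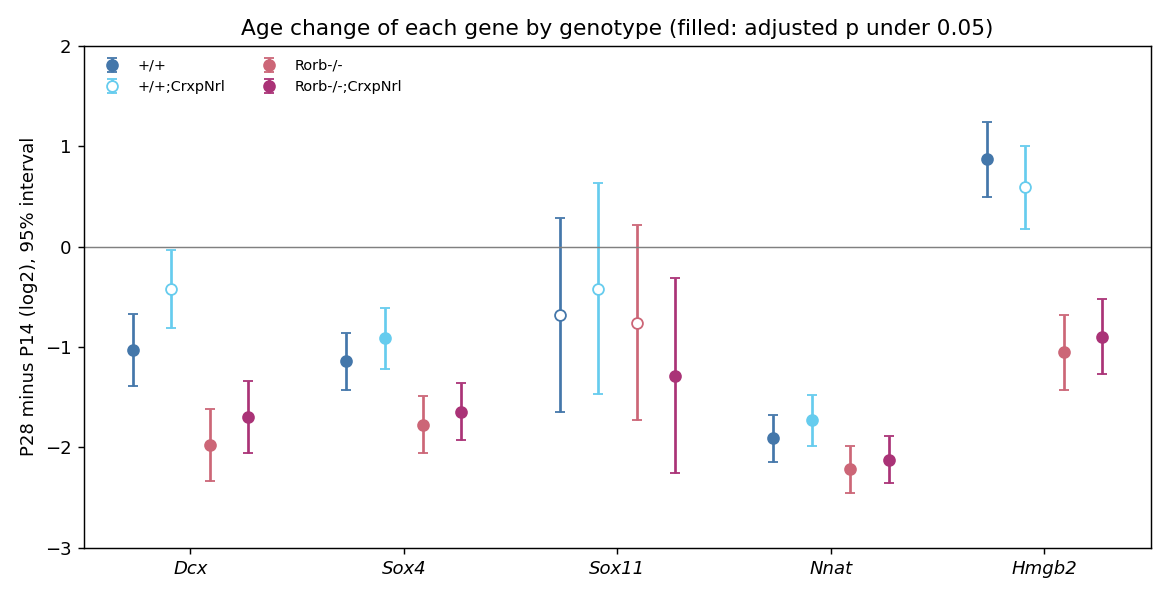
P28 minus P14 (y axis, log2, with 95% intervals) of each gene in the 4 genotypes, with filled points at adjusted p under 0.05. Nnat and Sox4 lie below 0 in all 4 genotypes, and Hmgb2 lies at 0.87 in +/+ and at -1.05 in Rorb-/-.

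Dcx had its lower levels at P28 in each genotype. In +/+ mice it read 6.27, 6.86, 6.79 and 6.42 at P14 and 5.51, 5.43, 5.70 and 5.58 at P28. In Rorb-/- mice it read 7.19, 7.40, 7.43 and 6.66 at P14 and 5.54, 4.88, 5.09 and 5.25 at P28. The ages did not overlap in either genotype, and the Rorb-/- mice spanned the wider distance. The fall was 1.03 ± 0.18 in +/+ (2.04-fold, adjusted p = 1.74e-04), where 101 genes fell further, and 1.98 ± 0.18 in Rorb-/- (3.95-fold, adjusted p = 1.53e-08), where 2 genes did.

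With the transgene, Dcx read 6.40, 6.72, 6.19 and 6.17 in P14 +/+ mice and 5.81, 5.96 and 6.08 in the 3 P28 mice. These groups did not overlap either, but stood close together. The difference was -0.42 ± 0.19 (95% interval -0.81 to -0.03) and did not pass (adjusted p = 0.183). Mice of the same replicate number passed the pairing check here (0.23 to 0.3), but that check did not look at mice of different numbers. With the replicate number as a block, which leaves P14 replicate 4 without a partner, the difference passed at -0.49 (adjusted p = 0.0429). In Rorb-/- mice with the transgene Dcx read 7.33, 7.98, 7.85 and 7.43 at P14 and 5.68, 5.88, 6.21 and 6.03 at P28, and fell by 1.70 ± 0.18 (3.25-fold, adjusted p = 2.65e-08). Ordered by mean, Dcx was highest in P14 Rorb-/- with the transgene (7.65 ± 0.32, SD, n = 4) and lowest in P28 Rorb-/- (5.19 ± 0.28, SD, n = 4). Neighbours in that order overlapped in every step but the one from P14 to P28 in +/+ with the transgene.

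Of the 4 probe sets of Dcx, 2 fell in +/+, 3 in Rorb-/-, 1 in +/+ with the transgene and 4 in Rorb-/- with it. Over all 34945 probe sets with a single gene symbol, 5.54%, 6.13%, 4.81% and 11.6% fell. The probe set 1418139_at read -0.60 in +/+ with the transgene and passed there (adjusted p = 0.0298 over probe sets). The 2 dimmer probe sets, with means of 4.30 and 4.84, lay between -0.43 and 0.07 in the 4 genotypes.

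Sox4 gave one pattern in every genotype. It read 10.58, 10.85, 10.45 and 10.53 in P14 +/+ mice and 9.36, 9.62, 9.38 and 9.48 at P28. The Rorb-/- mice read 11.43, 11.46, 11.41 and 11.07 at P14 and 9.59, 9.73, 9.46 and 9.47 at P28. Rorb-/- retinas lay above +/+ at P14 with no overlap and overlapped them at P28. Sox4 fell by 1.14 ± 0.14 in +/+ (2.21-fold, adjusted p = 2.13e-06) and by 1.78 ± 0.14 in Rorb-/- (3.43-fold, adjusted p = 2.37e-09), where 5 genes fell further.

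With the transgene, Sox4 went from 10.66, 10.71, 10.55 and 10.42 to 9.61, 9.76 and 9.64 in +/+ mice. It went from 11.47, 12.36, 12.23 and 11.93 to 10.06, 10.64, 10.21 and 10.49 in Rorb-/- mice. The ages did not overlap in either genotype. The falls were 0.91 ± 0.15 (1.88-fold, adjusted p = 1.68e-04) and 1.65 ± 0.14 (3.13-fold, adjusted p = 1.08e-09). At P28 the Rorb-/- retinas with the transgene still read 10.35 ± 0.26 (SD, n = 4), and overlapped the P14 +/+ retinas with the transgene (10.58 ± 0.13, SD, n = 4). The 3 other P28 groups overlapped each other at 9.36 to 9.76.

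Of the 8 probe sets of Sox4, 4 fell in +/+, 5 in Rorb-/-, 4 in +/+ with the transgene and 6 in Rorb-/- with it. Over all probe sets, 5.54%, 6.13%, 4.81% and 11.6% fell in these genotypes. None rose in any genotype. The probe sets that passed in no genotype, 1443778_at and 1458332_x_at, had means of 3.10 and 4.38.

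Sox11, the second SoxC gene, was noisier. Its brightest probe set, 1431225_at, read 7.78, 6.87, 7.22 and 7.43 in P14 +/+ mice and 6.96, 6.98, 6.75 and 5.88 at P28. In Rorb-/- mice it read 8.99, 8.31, 8.89 and 5.45 at P14 and 6.91, 6.88, 7.36 and 7.47 at P28. P14 Rorb-/- replicate 4 was the lowest of all 31 mice, and the ages overlapped in both genotypes. The differences, -0.68 ± 0.48 in +/+ (adjusted p = 0.411) and -0.76 ± 0.48 in Rorb-/- (adjusted p = 0.335), did not pass. Without that mouse the Rorb-/- difference was -1.58 (adjusted p = 7.06e-04).

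With the transgene, Sox11 read 7.68, 7.24, 6.94 and 6.53 at P14 and 6.37, 6.96 and 6.71 at P28 in +/+ mice, a difference of -0.42 ± 0.51 (adjusted p = 0.711). The Rorb-/- mice with the transgene read 9.18, 10.11, 9.06 and 9.25 at P14 and 8.0, 7.37, 8.54 and 8.55 at P28. They were the highest groups of both ages and did not overlap each other. The fall was 1.29 ± 0.48 (adjusted p = 0.0414). It ended with array weights (-1.05, adjusted p = 0.127), with a sex-linked covariate (-1.26, adjusted p = 0.0536), and without P14 replicate 1, 2 or 4 or P28 replicate 1 or 2 (-1.04 to -1.36, adjusted p = 0.0532 to 0.14).

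Across the 6 probe sets of Sox11, 2 fell in +/+, 5 in Rorb-/-, 0 in +/+ with the transgene by limma (2 of 6 at an unadjusted p under 0.05), and 5 in Rorb-/- with it. The shares of all probe sets that fell were 5.54%, 6.13%, 4.81% and 11.6% in the same order. The probe set 1453125_at read 6.38, 7.12, 6.58 and 6.52 in the P14 Rorb-/- mice, where replicate 4 did not stand apart. It fell by 0.92 ± 0.24 in +/+ (adjusted p = 0.0122 over probe sets), by 1.51 ± 0.24 in Rorb-/- (adjusted p = 7.86e-05) and by 1.10 ± 0.24 in Rorb-/- with the transgene (adjusted p = 0.00106). With the mean of all 6 probe sets, Sox11 stood at -0.61 in +/+ (adjusted p = 0.018) and at -1.02 in Rorb-/- (adjusted p = 1.22e-04). The brightest probe set is thus the one with the widest spread, and the calls for Sox11 rest on which probe set is taken.

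**Figure D3:**
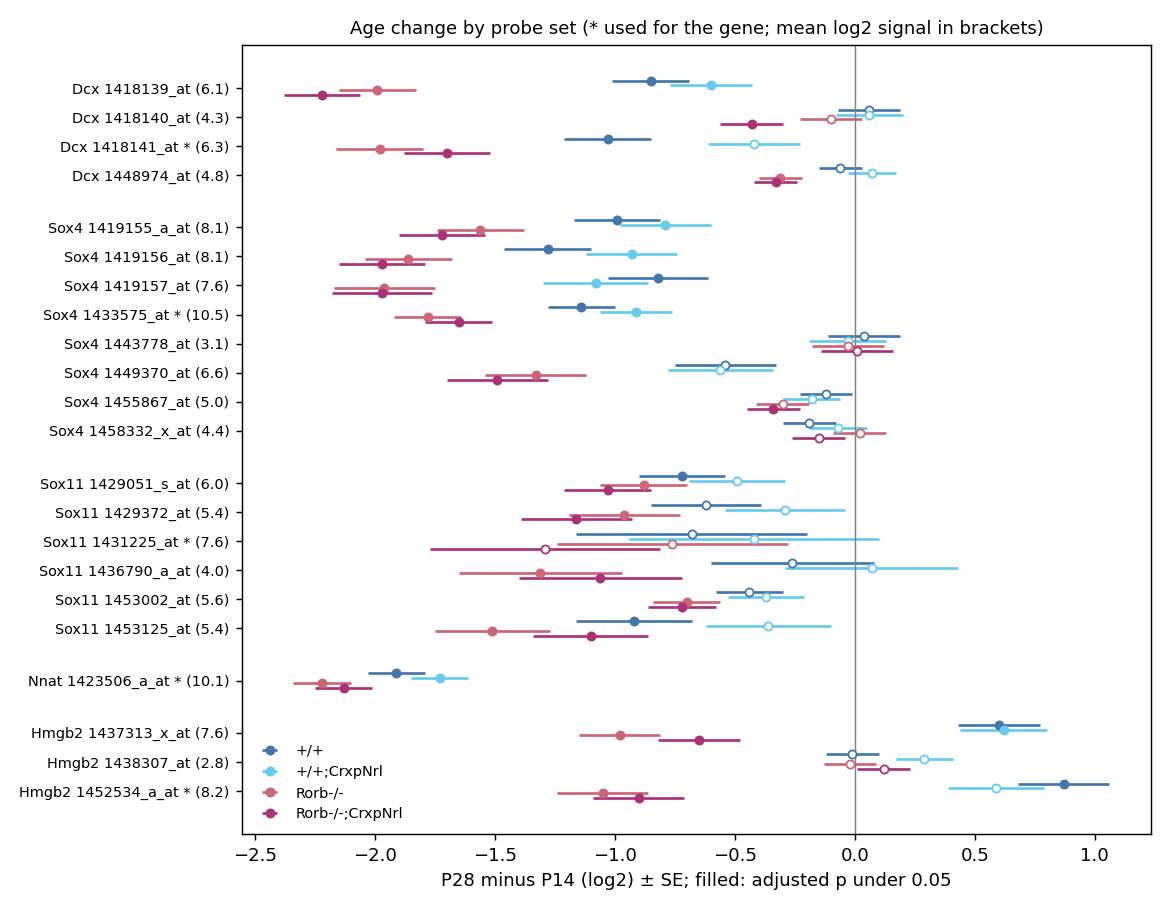
P28 minus P14 (x axis, log2 ± SE) of each of the 22 probe sets of the 5 genes in the 4 genotypes, with filled points at adjusted p under 0.05 over all probe sets, an asterisk at the probe set used for the gene and its mean signal in brackets. The Sox11 probe set 1431225_at has an SE of 0.48 in +/+, against 0.24 for 1453125_at, and the Hmgb2 probe set 1438307_at (mean 2.84) lies between -0.02 and 0.29.

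Nnat fell further than the other members in each genotype. It read 10.20, 10.58, 10.26 and 10.30 in P14 +/+ mice and 8.27, 8.40, 8.41 and 8.61 at P28. Rorb-/- mice read 11.60, 11.64, 11.51 and 11.26 at P14 and 9.34, 9.53, 9.22 and 9.02 at P28. Both ages lay above +/+ with no overlap. The falls were 1.91 ± 0.11 in +/+ (3.76-fold, adjusted p = 3.52e-12), where 12 genes fell further, and 2.22 ± 0.11 in Rorb-/- (4.66-fold, adjusted p = 2.30e-13), where 1 gene did.

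With the transgene, Nnat went from 10.28, 10.24, 10.31 and 10.13 to 8.48, 8.52 and 8.52 in +/+ mice. It went from 11.70, 12.17, 12.09 and 11.77 to 9.85, 9.50, 9.93 and 9.93 in Rorb-/- mice. The P28 +/+ mice read almost alike, and the ages did not overlap in either genotype. The falls were 1.73 ± 0.12 (3.33-fold, adjusted p = 2.72e-10) and 2.13 ± 0.11 (4.37-fold, adjusted p = 6.84e-13). In order of level, the 4 P14 groups stood above all P28 groups, and the Rorb-/- groups led within each age. Nnat has a single probe set of its own, 1423506_a_at.

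The gene Nnat lies inside Blcap (GRCm38.p6 chr2:157560078-157562525 within chr2:157556362-157566361, on the opposite strand). Blcap, a gene of ubiquitous expression, read between 9.65 ± 0.13 and 9.83 ± 0.09 (SD, n = 4 each) as group means. Its age differences were 0.02, -0.03, -0.09 and 0.07 in +/+, Rorb-/-, and the same genotypes with the transgene, and limma called none of them, with 0 at an unadjusted p under 0.05. Other imprinted genes, from a list of 23, of which 22 were measured, did not follow Nnat with age as a group. In +/+ 2 rose and 1 fell with a median of -0.05, and in Rorb-/- 3 rose and 4 fell with a median of -0.03. Their mean level did lie higher in Rorb-/- than in +/+ with no overlap, as that of Nnat did. At P14 it was 8.17 to 8.25 against 7.90 to 7.97, and at P28 8.14 to 8.16 against 7.86 to 7.94. The same held with the transgene (8.22 to 8.35 against 7.96 to 7.98 at P14, and 8.28 to 8.45 against 7.90 to 7.91 at P28). Cdkn1c, a cell cycle inhibitor, fell by 0.70 in +/+ (adjusted p = 2.90e-04), and Impact, a regulator of translation, rose by 0.79 (adjusted p = 0.00168). Mest and Igf2, a growth factor gene, fell by 1.24 and by 1.04 in Rorb-/-, while they read 0.08 and 0.04 in +/+.

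Hmgb2 changed direction with the genotype. It read 8.39, 8.62, 8.23 and 8.60 in P14 +/+ mice and 9.30, 9.13, 9.56 and 9.32 at P28. In Rorb-/- mice it read 8.46, 8.27, 8.29 and 8.23 at P14 and 6.80, 6.73, 7.92 and 7.58 at P28. The ages did not overlap in either genotype, with P28 above P14 in +/+ and below it in Rorb-/-. Hmgb2 rose by 0.87 ± 0.18 in +/+ (1.82-fold, adjusted p = 0.00174), and fell by 1.05 ± 0.18 in Rorb-/- (2.07-fold, adjusted p = 1.72e-04).

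With the transgene, Hmgb2 went from 8.55, 8.23, 8.47 and 8.40 to 8.92, 9.34 and 8.75 in +/+ mice, a difference of 0.59 ± 0.20 that did not pass (adjusted p = 0.0579). It passed in 7 of the alternatives, among them the replicate block (0.58, adjusted p = 0.0284). The Rorb-/- mice with the transgene went from 7.77, 8.25, 8.08 and 8.06 to 7.47, 7.01, 6.92 and 7.16. Their fall was 0.90 ± 0.18 (1.86-fold, adjusted p = 3.96e-04). The 4 P14 groups overlapped each neighbour in their order, at 7.77 to 8.62. At P28 the +/+ groups lay at 8.75 to 9.56 and the Rorb-/- groups at 6.73 to 7.92, so the genotypes were apart at P28 and overlapped at P14.

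Of the 3 probe sets of Hmgb2, 2 rose in +/+, where 4.36% of all probe sets rose, and 2 fell in Rorb-/-, where 4.46% rose and 6.13% fell. With the transgene 1 rose in +/+ (2.12% of all probe sets) and 2 fell in Rorb-/- (11.6% fell and 10.5% rose). In the fit over probe sets, 1437313_x_at stood at 0.60 in +/+ (adjusted p = 0.0207), -0.98 in Rorb-/- (adjusted p = 2.10e-04), 0.62 in +/+ with the transgene (adjusted p = 0.0365) and -0.65 in Rorb-/- with it (adjusted p = 0.0049). Its suffix marks probes that can match other transcripts, and that of the brightest probe set, 1452534_a_at, probes shared by transcripts of one gene. The probe set without a suffix of this kind, 1438307_at, had a mean of 2.84, near the array minima of 2.0 to 2.33, and passed in no genotype. The related gene Hmgb3 read 9.52 ± 0.13 (SD, n = 4) at P14 and 8.68 ± 0.16 (SD, n = 4) at P28 in +/+ and fell in all 4 genotypes, by 0.84 in +/+, by 1.04 in Rorb-/-, and by 1.02 and by 1.18 with the transgene. Of the 6 measured genes in a list of 11 chromatin proteins of this kind, 2 fell and 0 rose by limma in each genotype.

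The age change itself differed between genotypes for Dcx, Sox4 and Hmgb2. Hmgb2 differed most between Rorb-/- and +/+, by -1.92 ± 0.26 (adjusted p = 1.39e-04), and Dcx by -0.95 ± 0.25 (adjusted p = 0.0344). These were 2 of the 5 genes, while 1.31% of all genes had a more negative age change in Rorb-/-. The difference was -0.64 ± 0.20 for Sox4 (adjusted p = 0.081), -0.31 ± 0.16 for Nnat (adjusted p = 0.379, 95% interval -0.64 to 0.02) and -0.08 ± 0.67 for Sox11 (adjusted p = 0.98), none of which passed. Sox4 passed at the same -0.64 with the replicate block (adjusted p = 0.0034), with array weights (adjusted p = 0.0341) and when the other groups were left out (adjusted p = 0.021), and at -0.73 without P14 Rorb-/- replicate 4 (adjusted p = 0.0413). The interval for Sox11, -1.45 to 1.30, is too wide to place it. The call for Dcx rests on little: it ended when probe sets were fitted one by one (adjusted p = 0.0506) and without any of 9 single mice (-0.94 to -0.85, adjusted p = 0.0622 to 0.0796), which were P14 +/+ replicates 1 and 4, P28 +/+ replicates 3 and 4, P14 Rorb-/- replicates 1, 2 and 3 and P28 Rorb-/- replicates 2 and 3.

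With the transgene in both, the age change of Rorb-/- against +/+ differed by -1.28 ± 0.26 for Dcx (adjusted p = 0.00147), by -0.73 ± 0.20 for Sox4 (adjusted p = 0.0169) and by -1.49 ± 0.27 for Hmgb2 (adjusted p = 5.58e-04). These were 3 of the 5 genes, against 3.95% of all genes with a more negative change and 8.58% with a more positive one. Nnat stood at -0.40 ± 0.17 (adjusted p = 0.131) and Sox11 at -0.87 ± 0.70 (adjusted p = 0.488). The call for Sox4 ended when the other groups were left out of the fit (adjusted p = 0.0648) and without P28 replicates 3 and 4 of Rorb-/- with the transgene (adjusted p = 0.0611). Against +/+ without the transgene, which shares its Rorb-/- mice with this comparison, 1 of the 5 passed, Hmgb2 at -1.76 ± 0.26 (adjusted p = 5.64e-05), and 6.67% of all genes did in that direction. Dcx at -0.67 (adjusted p = 0.0662) passed with the replicate block (adjusted p = 0.0222), with the mean of probe sets (-0.70, adjusted p = 0.00189), without dim genes (adjusted p = 0.0499), and without P14 +/+ replicate 2 or P14 replicate 1 of Rorb-/- with the transgene (-0.76 and -0.78). Sox4 at -0.50 (adjusted p = 0.082) passed with the mean of probe sets (-0.53, adjusted p = 0.00747), with array weights (-0.52, adjusted p = 0.0398), and without the same mice or P28 replicate 2 of Rorb-/- with the transgene (-0.59 to -0.68).

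No member's age change passed the test for a difference with the transgene. In +/+ mice, limma at an adjusted p under 0.05 called 0 of the 5 for the difference of the age change with and without it, where 0% of all genes were called either way, and 1 of the 5 and 938 of all genes had an unadjusted p under 0.05. That member was Dcx, at 0.61 ± 0.26 (95% interval 0.08 to 1.14). In Rorb-/- mice limma called 0 of 5 as well, with 0 at an unadjusted p under 0.05. There 0.671% of all genes had a more negative and 0.813% a more positive change. The intervals in Rorb-/- ran from -0.24 to 0.42 for Nnat, -0.27 to 0.53 for Sox4, -0.23 to 0.79 for Dcx, -0.38 to 0.69 for Hmgb2 and -1.91 to 0.85 for Sox11.

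At P14, 3 of the 5 genes were higher in Rorb-/- than in +/+, a call that 16% of all genes had. Nnat was higher by 1.16 ± 0.11 (2.24-fold, adjusted p = 3.45e-09), Sox4 by 0.74 ± 0.14 (1.67-fold, adjusted p = 1.13e-04) and Dcx by 0.59 ± 0.18 (adjusted p = 0.011). The Dcx values overlapped, at 6.66 to 7.43 and 6.27 to 6.86, and the call ended without P14 +/+ replicate 1 (0.48, adjusted p = 0.0531). Hmgb2 stood at -0.15 ± 0.18 (adjusted p = 0.605) and Sox11 at 0.58 ± 0.48 (adjusted p = 0.406). Without P14 Rorb-/- replicate 4 Sox11 was at 1.40 (adjusted p = 8.62e-04), and 5 of its 6 probe sets were higher in Rorb-/- when each was fitted on its own, against 12.8% of all probe sets. At P28, Nnat was still higher, by 0.86 ± 0.11 (adjusted p = 7.64e-07, 1 of 5 against 15.9% of all genes). Hmgb2 was lower by 4.19-fold (-2.07 ± 0.18, adjusted p = 3.92e-10, 1 of 5 against 15.2%), and Sox4 (0.10 ± 0.14), Dcx (-0.36 ± 0.18, adjusted p = 0.124) and Sox11 (0.51 ± 0.48, adjusted p = 0.472) did not pass. With the mean of probe sets Sox11 (0.63, adjusted p = 0.00505) and Dcx (-0.27, adjusted p = 0.0478) passed.

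Markers of other cells differed between these genotypes as well. As background, 16% of all genes were higher and 13.9% lower in Rorb-/- at P14, and 15.9% higher and 15.2% lower at P28. The mean of 9 cone markers lay between 9.82 and 9.93 in P14 +/+ and between 11.72 and 11.88 in P14 Rorb-/-, with 8 of the 9 higher. The mean of 11 amacrine cell markers lay between 8.90 and 9.03 in P14 +/+ and between 7.0 and 7.17 in P14 Rorb-/-, with 8 of the 11 lower. At P28 the ranges were 10.06 to 10.23 and 12.06 to 12.27 for cone markers and 8.76 to 9.01 and 7.14 to 7.22 for amacrine markers. Of 8 rod markers 7 were lower in Rorb-/- at P14 and 6 at P28, and of 10 microglia markers 10 and 8 were higher. None of these mean levels overlapped between Rorb-/- and +/+ at either age. With the transgene the cone markers read 5.91, 7.66, 6.02 and 5.95 in P14 +/+ mice, where replicate 2 stood apart. In P14 Rorb-/- mice with the transgene they lay between 7.96 and 8.69. Their part in the members' differences was not tested.

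The comparison of Rorb-/- with +/+ when both carried the transgene ran the same way at P14, with other mice. Sox11 was higher by 2.30 ± 0.48 (adjusted p = 3.68e-04), Nnat by 1.69 ± 0.11 (adjusted p = 2.80e-12), Sox4 by 1.41 ± 0.14 (adjusted p = 4.22e-09) and Dcx by 1.28 ± 0.18 (adjusted p = 1.36e-06). These 4 of 5 stand against 16.3% of all genes, and all 6 Sox11 probe sets were higher, against 13.3% of all probe sets. At P28, Nnat (1.30 ± 0.12), Sox4 (0.68 ± 0.15) and Sox11 (1.43 ± 0.51, adjusted p = 0.0289) were higher, 3 of 5 against 20.7% of all genes. Hmgb2 was lower by 1.86 on the log2 scale (1 of 5 against 15.9%), and Dcx did not differ beyond its spread (0.00 ± 0.19, 95% interval -0.39 to 0.39). The P28 call for Sox11 ended without replicate 1 or 3 of +/+ or replicate 3 or 4 of Rorb-/- (1.28 to 1.45, adjusted p = 0.0636 to 0.105), and without replicates 3 and 4 of Rorb-/- together (1.0, adjusted p = 0.264).

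Within Rorb-/-, the transgene came with higher levels of some members. At P14 Sox4 was higher by 0.66 ± 0.14 (adjusted p = 0.00278) and Nnat by 0.43 ± 0.11 (adjusted p = 0.0207), 2 of 5 against 2.05% of all genes. Neither passed in a fit of the 2 groups alone (adjusted p = 0.0612 and 0.0739), and the Nnat call also ended without P14 Rorb-/- replicate 4 or without replicate 2 or 3 of the mice with the transgene (0.35 to 0.38). At P28 Sox4 (0.79 ± 0.14, adjusted p = 1.39e-04), Dcx (0.76 ± 0.18, adjusted p = 0.00231) and Nnat (0.52 ± 0.11, adjusted p = 0.00135) were higher, 3 of 5 against 11.7% of all genes. The Nnat call ended with the replicate block (adjusted p = 0.0732), and those for Nnat (0.40, adjusted p = 0.0748) and Dcx (0.59, adjusted p = 0.0929) ended without P28 replicates 3 and 4 of the mice with the transgene. Sox11 had the largest differences of the members, 1.49 ± 0.48 in the younger mice (adjusted p = 0.0675) and 0.96 ± 0.48 in the older (adjusted p = 0.178), and did not pass. With the mean of probe sets both passed (0.63, adjusted p = 0.0251, and 0.59, adjusted p = 0.0139). The P14 difference also passed without P14 Rorb-/- replicate 1 or 3 (1.85 and 1.82), and the P28 difference with the replicate block (adjusted p = 0.011) and in a fit of both groups alone (adjusted p = 0.0472). Dcx at P14 (0.48, adjusted p = 0.128) passed with the mean of probe sets (0.39, adjusted p = 0.0194). In +/+ mice limma called 0 of 5 at P14, where 0.0165% of all genes rose and 0.11% fell, and 0 of 5 at P28, where 0.022% rose and 0.198% fell. At an unadjusted p under 0.05 there were 0 of 5 at P14 and 1 of 5 at P28, Dcx at 0.40 ± 0.19.

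Other genes of young neurons fell with age more often than they rose. The list held 32 genes of cytoskeleton, growth cone and neuronal differentiation, none of them a member, and all were measured. With age 14 fell and 0 rose in +/+ (median -0.35), 17 fell and 0 rose in Rorb-/- (median -0.35), 14 fell and 1 rose in +/+ with the transgene (median -0.28), and 18 fell and 2 rose in Rorb-/- with it (median -0.32). Marcksl1, an actin-binding protein gene, fell by 1.75 in +/+ and by 1.02 in Rorb-/-, and Tubb2b, a tubulin of growing neurons, fell by 1.73 and by 1.66. Gap43, a growth cone protein gene, fell by 0.84 and by 1.04, and Tubb3, neuronal tubulin, by 0.77 and by 0.93. All 4 also passed in both genotypes with the transgene. Gap43 is also in the list of ganglion cell markers, so those lists are not separate measurements. Insm1, a transcription factor gene of newborn neurons, fell by 1.34 in Rorb-/- (adjusted p = 0.00289) and by 2.34 in Rorb-/- with the transgene (adjusted p = 1.17e-06) and read -0.67 in +/+ (adjusted p = 0.165).

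The list did not move as one between genotypes. At P14, 10 of the 32 were higher and 8 lower in Rorb-/- than in +/+ (median 0.17), while 16% of all genes were higher and 13.9% lower. Tubb2b (1.55), Gap43 (0.86) and Marcksl1 (0.82) were higher, as Nnat and Sox4 were, while Nhlh2, a transcription factor gene of young neurons, was lower by 2.93 on the log2 scale and Ebf3 by 0.95. The amacrine cell markers given above were lower in the same mice, and their part in these differences was not tested. The age change of Marcksl1 was less negative in Rorb-/- by 0.73 ± 0.19 (adjusted p = 0.0377), opposite in sign to that of Dcx, and this was 1 of 32 genes, with 2 of the opposite sign. A list of 12 genes of doublecortin relatives and neuronal microtubules had 1 that rose and 2 that fell in +/+ (median -0.10) and 3 that rose and 3 that fell in Rorb-/- (median -0.09).

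Of 26 listed genes of late progenitors 24 were measured, and with age 2 fell in +/+ and 5 in Rorb-/- with none that rose, at a median of -0.15 in both. The 2 of 24 in +/+ stand against 7.94% of all genes that fell. With the transgene 3 fell in +/+ (median -0.04), and 8 fell and 4 rose in Rorb-/- (median -0.17). Between genotypes at P14, 14 were higher and 1 lower in Rorb-/- than in +/+ (median 0.62), and at P28 14 were higher and 2 lower (median 0.65), with medians over all genes of -0.01 and -0.02. Among all genes, 16% were higher and 13.9% lower in Rorb-/- at P14, and 15.9% higher and 15.2% lower at P28. Sfrp2, an inhibitor of Wnt signalling, was higher by 2.44 (P14) and by 1.76 (P28), and Hes5, a target of Notch signalling, fell with age by 0.98 in Rorb-/- (adjusted p = 0.0143) and read 0.19 in +/+. Several of these genes, among them Hes1 (1.39 at P14), Sox2 (0.95) and Sox9 (0.62), are also made by Müller glia. Hes1 and Sox9 are also in the list of 13 Müller glia markers, so the lists are not separate measurements. Of those 13 markers, 6 were higher and 2 lower in Rorb-/- at P14, and 9 were higher and 0 lower at P28. Their mean lay between 9.58 and 9.73 in P14 +/+ and between 9.89 and 10.10 in P14 Rorb-/-, and between 9.54 and 9.72 and then 10.23 and 10.25 at P28, with no overlap at either age. With age 1 rose and 1 fell in +/+, and 4 rose and 2 fell in Rorb-/-. Their part in the late progenitor differences was not tested.

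Cell division genes showed little of the Hmgb2 pattern gene by gene. Of 23 measured of 24, 2 rose and 3 fell in +/+ (median 0.01), and 0 rose and 2 fell in Rorb-/- (median -0.09). The mean of the 23 was dim, at 5.13 to 5.52 over all mice, below the array medians of 5.84 to 5.91. At P14 it overlapped between +/+ (5.27 to 5.31) and Rorb-/- (5.25 to 5.33). At P28 it was lower in Rorb-/- (5.13 to 5.21) than in +/+ (5.24 to 5.28), the direction of Hmgb2. Mcm6, a subunit of the replicative helicase, fell by 0.40 in +/+ and by 0.70 in Rorb-/-, where Hmgb2 rose and fell. The difference of the age change between Rorb-/- and +/+ passed for 1 of the 23, Mcm5 at -0.67 ± 0.18 (adjusted p = 0.0358). Of 14 Sox genes other than the members, 2 fell in +/+ and 2 in Rorb-/-. Sox12, the remaining SoxC gene, read -0.47 in +/+ (adjusted p = 0.0592) and -0.48 in Rorb-/- (adjusted p = 0.0502), and fell by 1.07 in Rorb-/- with the transgene. Genes of mature synapses, 19 measured of 20, had 1 that rose and 2 that fell in +/+ (median 0.02), 2 that rose and 0 that fell in Rorb-/- (median 0.14), and 9 that rose and 1 that fell in Rorb-/- with the transgene (median 0.32). The rise and fall counts for all genes given above are the background for each list.

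**Figure D4:**
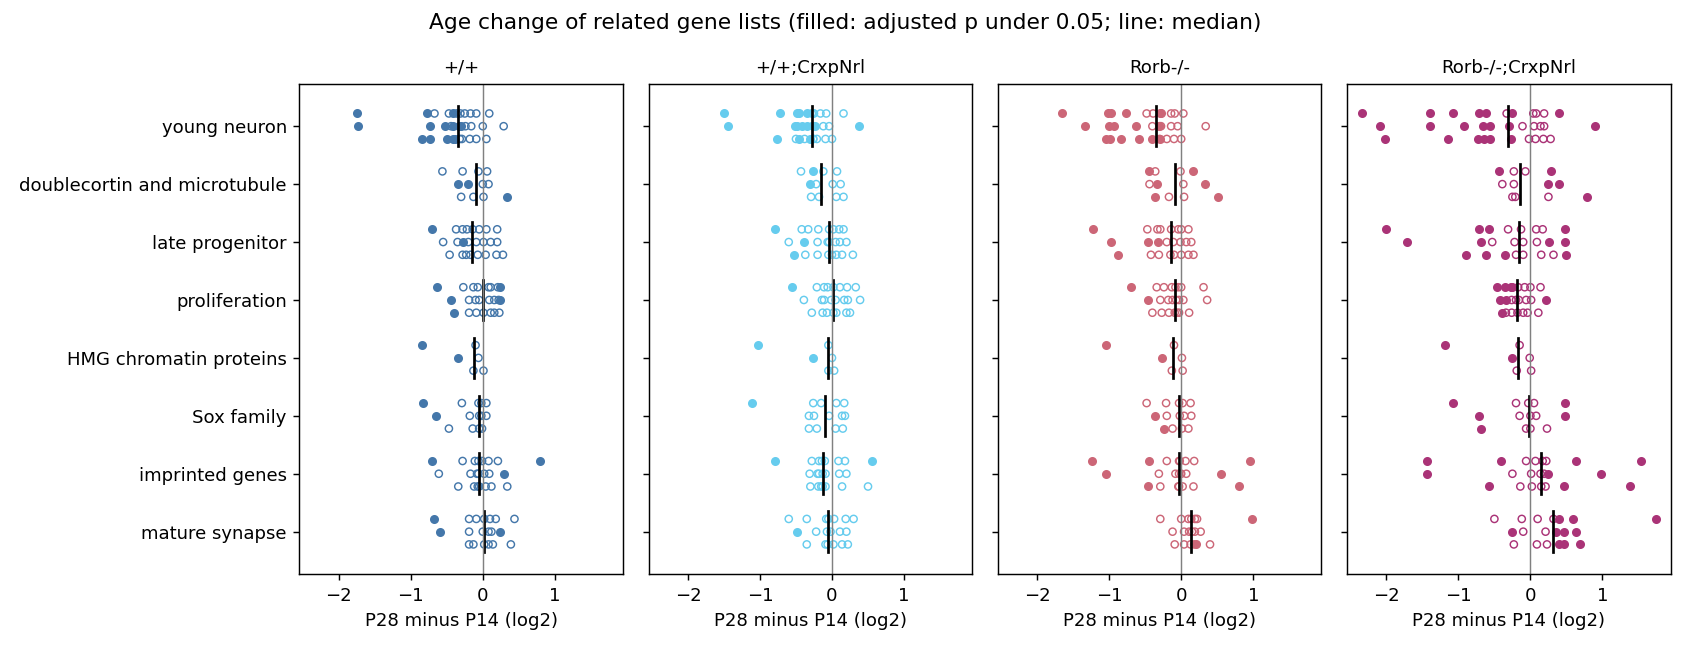
P28 minus P14 (x axis, log2) of each gene in the related lists (rows) for the 4 genotypes (panels), with filled points at adjusted p under 0.05 and a line at each list's median. The young neuron genes have medians of -0.28 to -0.35, and the proliferation genes of -0.18 to 0.02.

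Markers of other cells moved with age too. Of 10 microglia markers, 7 fell in +/+, 6 in Rorb-/-, 4 in +/+ with the transgene and 8 in Rorb-/- with it, and none rose. Their mean level lay between 6.28 and 6.43 in P14 +/+ mice and between 5.78 and 5.92 at P28, and between 7.22 and 7.61 and then 6.66 and 6.92 in Rorb-/- mice. Of 12 pigment epithelium markers, 10 fell and 0 rose in +/+, and 3 rose and 0 fell in Rorb-/-, a turn of direction opposite to that of Hmgb2. Their mean level lay between 7.33 and 7.76 in P14 +/+, 5.66 and 6.94 in P28 +/+, 5.46 and 5.93 in P14 Rorb-/- and 5.70 and 7.38 in P28 Rorb-/-. Of 10 vessel markers, 5 fell and 1 rose in +/+, and 1 rose and 1 fell in Rorb-/-. The mean of 11 ganglion cell markers lay between 9.35 and 9.42 in P14 +/+ mice and between 8.93 and 9.02 at P28. With the transgene the +/+ ranges were 9.38 to 9.5 and 9.01 to 9.1. The ages overlapped in Rorb-/- (8.58 to 9.19 and 8.63 to 8.98) and in Rorb-/- with the transgene (medians of 9.21 and 9.55). Lens markers, 9 measured of 10, gave 0 calls by limma in any genotype (3 of 9 at an unadjusted p under 0.05 in Rorb-/- and 0 in the others) but lay between 6.37 and 11.32 in the P28 +/+ mice, so their level differed widely between mice of one group. Arrays give no true 0, and the part of these cells in the members' changes was not tested.

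Correlations over the 31 arrays are given as a description, since the arrays share age and genotype. Pearson's r was 0.96 between Sox4 and Nnat, 0.94 between Dcx and Sox4, 0.88 between Dcx and Nnat, and 0.66 to 0.71 for Sox11 with these 3. Hmgb2 stood between -0.31 and 0.07 with the others. The genes whose levels followed Dcx most closely were Asxl3 (r = 0.95), Mycn (0.939) and Marcks (0.933). Mycn, a growth-promoting transcription factor gene (0.963), Dbn1, an actin-binding protein gene of neurons (0.958), and Actg1, a cytoplasmic actin gene (0.957), followed Sox4. Those for Nnat were Rplp0, a ribosomal protein gene (0.971), Hmgb3 (0.967) and Snx4 (0.96), those for Sox11 were Mboat2 (0.836), Golm1 (0.835) and Plppr3 (0.811), and those for Hmgb2 were Dera (0.912), Hmgxb4 (0.894) and Supv3l1 (0.893). Dera, an aldolase gene, rose with age in +/+ by 0.38 and fell in Rorb-/- by 0.48, as Hmgb2 did. Likeness on these arrays was the ground for naming them.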

How the data were processed

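Total RNA of the retinas of single mice was labelled (5 ug) and hybridised to Affymetrix arrays, per the labels' protocols. The deposited values are log2 signals. The submitters' processing notes name RMA without a version, and no further normalization was applied. RMA sets the arrays to one distribution, so a shift of most genes together would not be seen.

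Of 45101 probe sets, 34945 carried 1 gene symbol in the platform annotation, and the brightest of each gene was taken, giving 18193 genes. Probe sets with several symbols or none stay unnamed. All 31 arrays entered 1 limma fit with 8 group means and a trended prior variance, and adjusted p is Benjamini-Hochberg over all genes. The number of arrays limits the precision. Replicates are separate mice.

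The members, the gene lists and the tests were chosen with earlier results of these data known. Named genes are the members, Rorb, relatives of the members, the 3 genes most like each member, and up to 4 genes per list with the largest called differences in +/+ and up to 2 in each other genotype. Ebf3, Nhlh2, Hes1, Sox2, Sox9, Dera and Mcm5 and the differences between genotypes of list genes fall outside that rule or were given after their values were seen.

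Whether mice with the same replicate number pair up was checked through correlations of their deviations from the group means. Mice of different numbers were not compared, so the check cannot show that the numbers pair mice. All pairs exceeded 0.1 in P28 against P14 in +/+;CrxpNrl (0.23 to 0.3), P14 Rorb-/- against +/+ (0.11 to 0.29) and P28 +/+;CrxpNrl against +/+ (0.21 to 0.37). The alternatives were each mouse left out, P28 Rorb-/-;CrxpNrl replicates 3 and 4 left out together (chosen after seeing the data), a fit of the compared groups alone, a replicate block, a sex-linked covariate, arrays weighted by quality, no trend, leaving out the dimmest 40% of genes, each probe set on its own, probe sets averaged per gene or without shared-sequence suffixes, and arrays quantile normalized or shifted to one median. The fit was tested on simulated data. Promoters came from RefSeq (GRCm38.p6). R 4.3.3, limma 3.58.1, Python 3.11.15, pandas 2.3.3 and matplotlib 3.10.9 were used.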

Additional observations from a re-analysis of the deposited data

Results flagged for a closer look

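Each member was tested in each group of 4 mice for a sample far from the rest, in 35 tests that share mice. In 1 of them, Sox4 in P14 Rorb-/-, replicate 4 read 11.07. The nearest mouse read 11.41 and the other end of the group 11.46. The gap was 0.867 of the range, and chance gives such a gap in about 1 of 20 tests. The same mouse was also the lowest of its group for Dcx (6.66), Sox11 (5.45), Nnat (11.26) and Hmgb2 (8.23). Its mean of rod markers (10.75) was the highest of the group, and its mean of late progenitor genes (7.79) the lowest.

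The age change differed between genotypes by the test of the difference itself in 6 cases. For Dcx it was more negative in Rorb-/- than in +/+ by -0.95 on the log2 scale, and more negative in Rorb-/-;CrxpNrl than in +/+;CrxpNrl by -1.28. For Sox4 the latter difference was -0.73. For Hmgb2 it was -1.92 between Rorb-/- and +/+, -1.49 between the same genotypes with the transgene, and -1.76 between Rorb-/-;CrxpNrl and +/+. At the Hmgb2 probe set 1437313_x_at these 3 differences were -1.58, -1.27 and -1.25, and the probe set without a shared-sequence suffix had a mean of 2.84.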

How the results depend on the processing

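Of 256 age results of the members recomputed under the alternatives other than single left-out mice, 241 kept their direction and their side of the threshold, and of 155 with 1 mouse left out, 148 did. The median shift, no trend in the prior variance and leaving out suffixes _s_at and _x_at changed no call of a member and no count by over 1.5 times. Leaving out suffix _a_at as well, chosen after seeing the data, leaves Nnat without a probe set and Hmgb2 with 1438307_at (mean 2.84) only. There Hmgb2 stood at -0.01 in +/+, -0.02 in Rorb-/-, 0.12 in Rorb-/-;CrxpNrl and 0.13 for the difference of Rorb-/-;CrxpNrl from +/+, and 1 member fell in +/+;CrxpNrl, 2 in Rorb-/- and 3 in Rorb-/-;CrxpNrl, with 3 of the interactions (against 6) and 15 of the genotype comparisons (against 26) called. The Hmgb2 change in +/+;CrxpNrl passed at 0.60 with quantile normalization, 0.50 with the mean of probe sets, 0.59 without dim genes, 0.62 with array weights, 0.58 with the replicate block, and 0.59 with only the compared groups. Over single left-out mice it ranged from 0.42 to 0.72 (adjusted p = 0.049 to 0.302) and passed without P28 replicate 3 only. Sox11 stood at -0.61 in +/+ and -1.02 in Rorb-/- with the mean of probe sets and ranged from -1.58 to -0.39 over single left-out mice in Rorb-/-. In Rorb-/-;CrxpNrl it lost its call at -1.29 with each probe set on its own (adjusted p = 0.0531), -1.05 with array weights and -1.26 with the sex-linked covariate, and ranged from -1.43 to -1.04 over single left-out mice. The replicate block changed 9 of 95 member results, of which 1 call ended, Nnat in P28 Rorb-/-;CrxpNrl against Rorb-/- (0.52, adjusted p = 0.0732). Calls were gained for Dcx with age in +/+;CrxpNrl (-0.49), Hmgb2 there (above), the age differences of Sox4 between Rorb-/- and +/+ (-0.64) and of Dcx between Rorb-/-;CrxpNrl and +/+ (-0.67), Sox11 in P28 Rorb-/-;CrxpNrl against Rorb-/- (0.96), Dcx in P28 Rorb-/-;CrxpNrl against +/+ (0.39, adjusted p = 0.0257), and Hmgb2 in P14 Rorb-/-;CrxpNrl against +/+ (-0.42, adjusted p = 0.00848) and +/+;CrxpNrl (-0.37, adjusted p = 0.0429). It gave 3245 genes for age in +/+;CrxpNrl, against 1792, and 1096 to 1476 passed there with a mouse left out. In Rorb-/-;CrxpNrl 3356 genes passed with only the compared groups, against 5257. Without P28 Rorb-/-;CrxpNrl replicates 3 and 4, chosen after seeing the data, 22 genotype comparisons (against 26) and 5 interactions (against 6) were called, and Sox11 in P28 Rorb-/-;CrxpNrl against +/+ lost its call (1.04, adjusted p = 0.198). The causes of these moves were not tested. Signals near the array minima limit what the dim probe sets can show.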
